A study of Arabidopsis thaliana with 2 samples.

Results

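Genes for the synthesis and acetylation of cell wall polysaccharides were examined in root pericycle cells kept for 24 h without iron or with iron. The members were the single-gene probe sets whose symbol begins with TBL, CESA, CSLA, CSLB, CSLC, CSLD, CSLE, CSLG, GAUT, GATL, FLA or IRX followed by digits. The rule found 33 of the 22746 plant probe sets, each for a different gene. They comprised 22 TBL genes, all 5 CSLC genes of the reference table, 2 CSLA genes, CSLD2, GAUT15, IRX15 and IRX15-L. No CESA, CSLB, CSLE, CSLG, GATL or FLA gene was found, so the cellulose synthases and the fasciclin-like proteins were not analysed here, and the set is mainly one of acetylation.

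Plant cell walls hold cellulose in a matrix of xyloglucan, xylan, mannan and pectin, and most matrix polysaccharides are made in the Golgi. Glycosyltransferases of the cellulose synthase-like (CSL) families build several of the backbones, and proteins of the TRICHOME BIREFRINGENCE-LIKE (TBL) family transfer acetyl groups onto sugars of xylan, mannan, xyloglucan or pectin. Acetylation changes how the chains pack against cellulose and how readily enzymes cut them, and in roots the wall also binds metal ions, iron among them.

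Both groups were Arabidopsis thaliana seedlings of ecotype Columbia carrying the green fluorescent reporter J2661, grown for 6 days on standard medium with Fe(III)-EDTA and used at 7 days. One group spent the last 24 h on medium that held 0.3 mM ferrozine, a chelator of iron, in place of the iron source, and the other on medium with iron. Roots were protoplasted and the fluorescent cells sorted, so each sample is a pool of cells from many seedlings, defined by where 1 reporter line is expressed. The comparison asks how the pericycle, the outer layer of the vascular cylinder, responds to loss of iron. The data analysed here hold 1 column of values per condition, which was taken as 1 array. There was no replicate check and no test, so "higher" and "lower" mean higher or lower on the array without iron, in these 2 arrays alone.

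Values are intensities in arbitrary linear units, and they ranged over all plant probe sets from 0.329 to 83.5 without iron (median 0.866) and from 0.484 to 62.8 with iron (median 0.852). The log2 ratio, without iron over with iron, depended on brightness: above a filter on low values 91.8% of 11373 plant probe sets were higher without iron, and under it 7.94% of 11373 were. Of the controls, 27 of 27 Bacillus probe sets were lower and 9 of 9 hybridisation probe sets higher without iron. Each log2 ratio is therefore also given trend-adjusted, that is, minus a lowess curve of the log2 ratio on brightness over all plant probe sets. The local SD beside it is a robust SD of the trend-adjusted ratio among the 500 probe sets nearest in brightness. The local SD is a spread between genes, not between replicates. A probe set passed the filter when the mean of its log2 values reached the median of such means, equal to an intensity of 0.862. Of the pericycle and stele markers, 2 of 9 were matched to a single-gene probe set. A gene not matched may lie on a probe set that names no gene or several, so it is not shown to be unmeasured. LBD16 read 2.26 without iron and 1.60 with iron, and LBD29 read 0.628 and 0.706 and was below the filter. Their trend-adjusted log2 ratios were 0.04 and 0.03 (local SD 0.20 and 0.09). Of the 9 endodermis markers GSO1, a receptor kinase also called SGN3, read 1.44 without iron and 1.46 with iron, a trend-adjusted log2 ratio of -0.37 (local SD 0.19). Of the 8 phloem markers OPS read 0.866 without iron and 0.768 with iron, below the filter, with a trend-adjusted log2 ratio of 0.19 (local SD 0.13). The root hair and epidermis markers EXPA7 and EXPA18, both below the trend, are given with CSLD2. No xylem or root cap marker of the lists used was matched to a single-gene probe set, so the cell type label was hardly checked.

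Of the 33 members, 18 passed the filter (14 TBL genes, CSLC04, CSLC5, CSLD2 and IRX15-L) and 15 did not. TBL23 lay just inside the threshold, with 0.897 without iron and 0.838 with iron, and CSLC6 just outside, with 0.804 and 0.918. Without iron TBL28 and TBL36 were higher, the only members at least 1.5-fold apart in the deposited values. That is 2 of 18 past the filter, where 25.1% of all plant probe sets past the filter were at least 1.5-fold higher. No member past the filter was 1.5-fold lower (0.185% of all past the filter). After trend adjustment no member was 1.5-fold higher or lower, beside 1.13% higher and 1.46% lower of all past the filter. In these pooled cells, fewer cells of a type and less RNA per cell cannot be told apart.

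**Figure D1:**
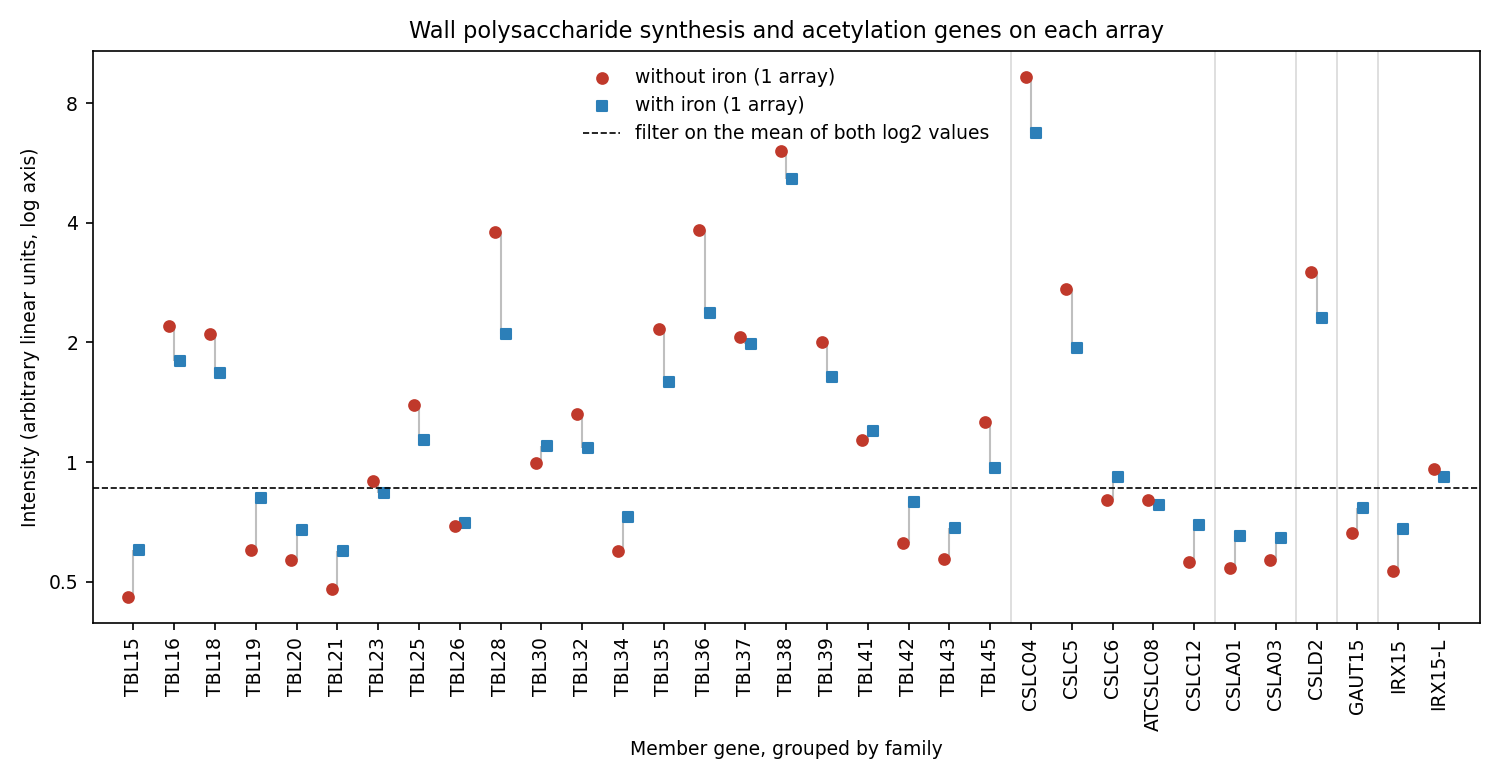
Intensity (arbitrary linear units, log axis) of the 33 member genes on the array without iron (red circles) and the array with iron (blue squares), grouped by family, with the filter value as a dashed line. Points of different genes are different probe sets, so only the pair of points of a gene can be compared, and TBL28 and TBL36 have the widest pairs above the filter.

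TBL28 (AT2G40150), a xylan O-acetyltransferase, read 3.78 without iron and 2.11 with iron. Its value was thus 1.80-fold higher without iron (log2 ratio 0.85), more than that of any other member. The trend-adjusted log2 ratio was 0.29, or 1.22-fold, with a local SD of 0.25. The authors' deposited table gave TBL28 a q of 0.00138. TBL28 stayed above 0 under each scaling tried, between 0.27 after removal of a fitted offset and scale factor and 0.46 with the median difference set to 0.

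TBL30 (AT2G40160), also a xylan O-acetyltransferase, is the next protein-coding gene to TBL28 on chromosome 2 in the reference table. It read 0.993 without iron and 1.10 with iron, for a log2 ratio of -0.15 that became -0.31 after trend adjustment (local SD 0.16). The authors' deposited table gave TBL30 a q of 0.162. The adjacent genes thus lay on opposite sides of 0, 0.99 apart in log2 ratio and 0.60 apart after trend adjustment, and this gap between them was not tested. Where a gene had several probe sets past the filter, as 12 genes did, their deposited log2 ratios had a pooled SD of 0.32. That is a spread of single probe sets, not of a gap between 2, and it was not computed after trend adjustment. In the other adjacent pair of members, on chromosome 5, both genes were below the filter. TBL21 read 0.479 without iron and 0.599 with iron, and TBL19 read 0.601 and 0.813. They were 0.11 apart in log2 ratio and 0.32 apart after trend adjustment, where the local SD was 0.06 for TBL21 and 0.11 for TBL19.

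The other members known as xylan O-acetyltransferases were TBL32, TBL34 and TBL35, a grouping made after values had been seen. TBL35 read 2.16 without iron and 1.59 with iron, for a log2 ratio of 0.44 that became -0.01 after trend adjustment. TBL32 read 1.32 and 1.08 without and with iron, with a log2 ratio of 0.29 and a trend-adjusted one of 0.03, on a probe set whose suffix marks possible binding to more than 1 transcript. TBL34 was below the filter at 0.597 without iron and 0.729 with iron, with a trend-adjusted log2 ratio of -0.08 (local SD 0.08). Among the 5, TBL28 had the highest and TBL30 the lowest trend-adjusted log2 ratio.

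Mannan is acetylated by TBL23 to TBL26, and 3 of these were members. TBL25 read 1.39 without iron and 1.13 with iron, with a log2 ratio of 0.30 and a trend-adjusted one of 0.02. TBL23 had log2 ratios of 0.10 before and 0.06 after trend adjustment. TBL26, below the filter, read 0.689 without iron and 0.704 with iron, with a log2 ratio of -0.03 and a trend-adjusted one of 0.12 (local SD 0.11). All 3 lay above the trend by less than 0.13. With the median difference set to 0 all 3 were below 0. That scaling subtracts 1 constant, 0.383, and leaves the trend with brightness in place. The curve stood below this constant for each, from -0.16 for TBL26 to 0.28 for TBL25. Those negative values therefore do not set the 3 genes apart from probe sets of like brightness.

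TBL36 (AT3G54260) read 3.84 without iron and 2.37 with iron, a 1.62-fold higher value (log2 ratio 0.70). The curve at its brightness stood at 0.57, so 0.13 remained after trend adjustment, less than the local SD of 0.23. The authors' deposited table gave TBL36 a q of 0.0382. TBL45 read 1.26 without iron and 0.965 with iron, with a log2 ratio of 0.39 and a trend-adjusted one of 0.19 (local SD 0.17). The authors' deposited table gave TBL45 a q of 0.0561. TBL28 and TBL45 were the 2 members past the filter that stood more than 1 local SD above the trend, or 11.1%, where 16.7% of all past the filter did.

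TBL37, TBL38, TBL30 and TBL41 stood more than 1 local SD below the trend, 4 of 18 or 22.2%, where 15.7% of all past the filter did. TBL37 (AT2G34070) read 2.06 without iron and 1.99 with iron, nearly equal values at a brightness where the curve stood at 0.48, and its trend-adjusted log2 ratio was -0.42 (local SD 0.19). TBL38 (AT1G29050), described as an acetylesterase of pectin in seed coat cells, read 6.07 without iron and 5.16 with iron, with a log2 ratio of 0.23 and a trend-adjusted one of -0.39 (local SD 0.23). TBL41 read 1.14 without iron and 1.20 with iron, with a log2 ratio of -0.08 and a trend-adjusted one of -0.31 (local SD 0.17). TBL30 and TBL41 were the only members past the filter with a lower deposited value without iron. For these 4 genes the authors' deposited table held q values between 0.162 and 0.243.

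**Figure D2:**
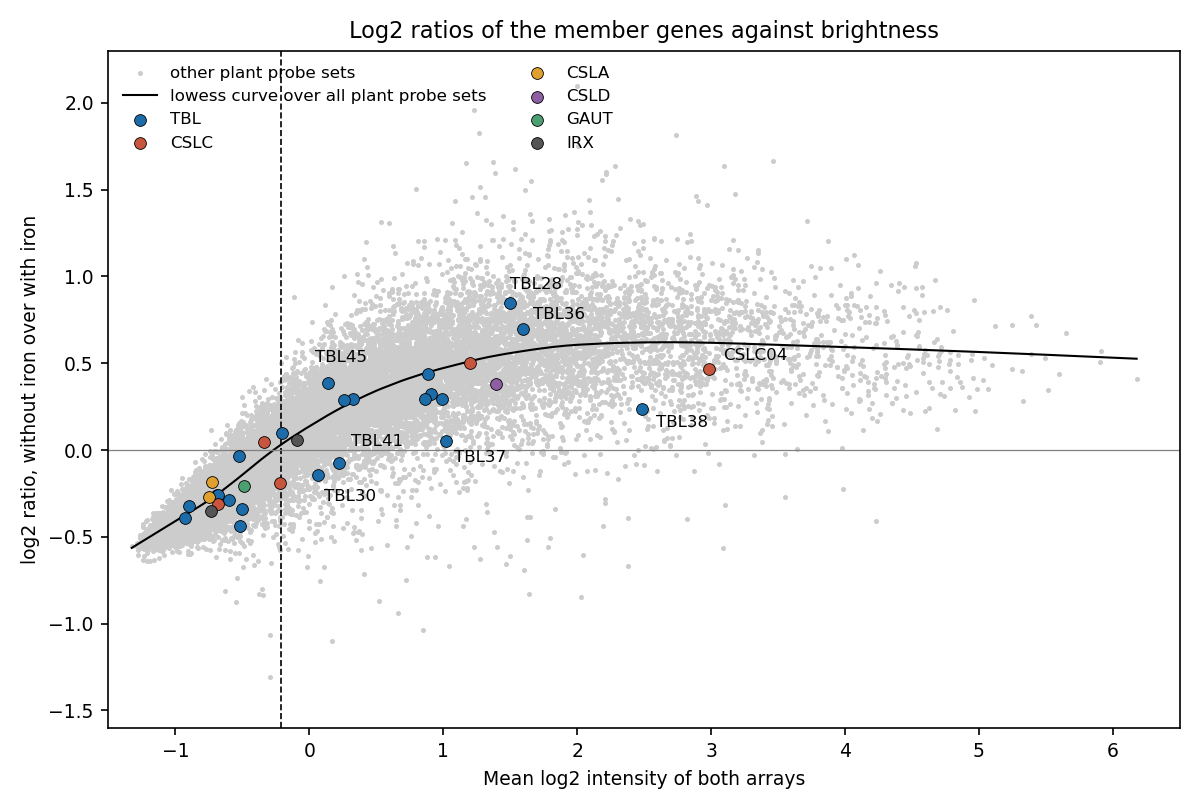
Log2 ratio (without iron over with iron) against the mean log2 intensity of both arrays for all plant probe sets (grey), with members coloured by family, the lowess curve in black and the filter as a dashed line. TBL28 lies 0.29 above the curve, and TBL37 and TBL38 lie 0.42 and 0.39 below it. Of the 15 members below the filter 14 lie below 0, and not all are near the curve (TBL19 lies 0.28 below it).

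TBL16, TBL18 and TBL39, whose polysaccharide targets are not stated here, read 2.21, 2.10 and 2.01 without iron and 1.80, 1.68 and 1.64 with iron. Their log2 ratios of 0.29, 0.32 and 0.29 became -0.18, -0.13 and -0.15 after trend adjustment, within the local SD of 0.21 of each. The authors' deposited table gave TBL18 a q of 0.0260. The 8 TBL genes below the filter (TBL15, TBL19, TBL20, TBL21, TBL26, TBL34, TBL42 and TBL43) were all lower without iron, as were 14 of the 15 members and most plant probe sets there, and ATCSLC08 was the exception among the members. TBL19 had the lowest log2 ratio of them, -0.44, and the lowest trend-adjusted one, -0.28 (local SD 0.11). TBL42, at 0.628 without iron and 0.796 with iron, had -0.34 and a trend-adjusted -0.20 (local SD 0.11). TBL26 had the highest trend-adjusted log2 ratio of the 8. Of the 15 members below the filter, 4 (TBL19, TBL34, TBL42 and CSLC6) stood more than 1 local SD below the trend. That is 26.7%, where 16.4% of all below the filter did. More than 1 local SD above it were 2 (TBL26 and CSLA03), or 13.3%, where 15.6% of all below the filter were.

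The CSLC proteins make the glucan backbone of xyloglucan, and all 5 genes were measured. CSLC04 (AT3G28180), the member of the family best known for this activity, read 9.32 without iron and 6.74 with iron, a 1.38-fold higher value with a trend-adjusted log2 ratio of -0.15 (local SD 0.24). CSLC5 read 2.73 without iron and 1.93 with iron, for a log2 ratio of 0.50 that became -0.01 after trend adjustment. The authors' deposited table gave CSLC5 a q of 0.0244. The other 3 genes were below the filter. CSLC6 had a log2 ratio of -0.19 and a trend-adjusted one of -0.22 (local SD 0.14). ATCSLC08 read 0.804 without iron and 0.779 with iron, a trend-adjusted log2 ratio of 0.09. CSLC12 read 0.559 without iron and 0.694 with iron, a trend-adjusted log2 ratio of -0.06. The 2 CSLC genes past the filter thus had higher deposited values without iron and lay below the trend (CSLC5 at -0.01 and CSLC04 at -0.15). With the median difference set to 0 both were above 0 (0.12 and 0.08). The curve at their brightness (0.51 and 0.62) exceeded the constant of 0.383 subtracted there, so those positive values do not place them above the trend.

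CSLD2, a cellulose synthase-like protein needed for normal root hair growth, read 3.00 without iron and 2.31 with iron, with a log2 ratio of 0.38 and a trend-adjusted one of -0.17 (local SD 0.25). Of 7 root hair and epidermis markers 2 were matched to a single-gene probe set, and they were lower without iron. EXPA7 read 0.820 without iron and 1.06 with iron, and EXPA18 read 0.802 and 0.993. Their trend-adjusted log2 ratios were -0.47 and -0.36 (local SD 0.14 and 0.16), each more than 1 local SD below the trend. Both were dim, at brightness percentiles 53.8 and 51.6. Their values without iron were under the filter value of 0.862, and they passed through the mean of both log2 values. The part of these 2 markers in the value of CSLD2 was not tested. The mannan synthase family genes CSLA01 and CSLA03 were below the filter, at 0.542 and 0.566 without iron and 0.653 and 0.644 with iron. They lay 0.02 and 0.09 above the trend (local SD 0.07 and 0.08).

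IRX15 and IRX15-L encode closely related proteins that act together in xylan synthesis. IRX15-L read 0.958 without iron and 0.919 with iron (trend-adjusted log2 ratio -0.03), and IRX15 was below the filter at 0.532 without iron and 0.678 with iron (trend-adjusted -0.07). GAUT15, of the family that includes the homogalacturonan synthase of pectin, was below the filter at 0.664 without iron and 0.767 with iron (trend-adjusted log2 ratio -0.07). None of these 3 was more than 1 local SD from the trend. Of 111 names in lists of other wall genes, for cellulose, xyloglucan, xylan, pectin, mannan, nucleotide sugars and secondary wall transcription factors, 96 genes were found in the reference table. Beyond the members, USP, which makes nucleotide sugars, was the only one matched to a single-gene probe set. USP read 2.93 without iron and 2.35 with iron, with a log2 ratio of 0.32 and a trend-adjusted one of -0.22 (local SD 0.24).

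**Figure D3:**
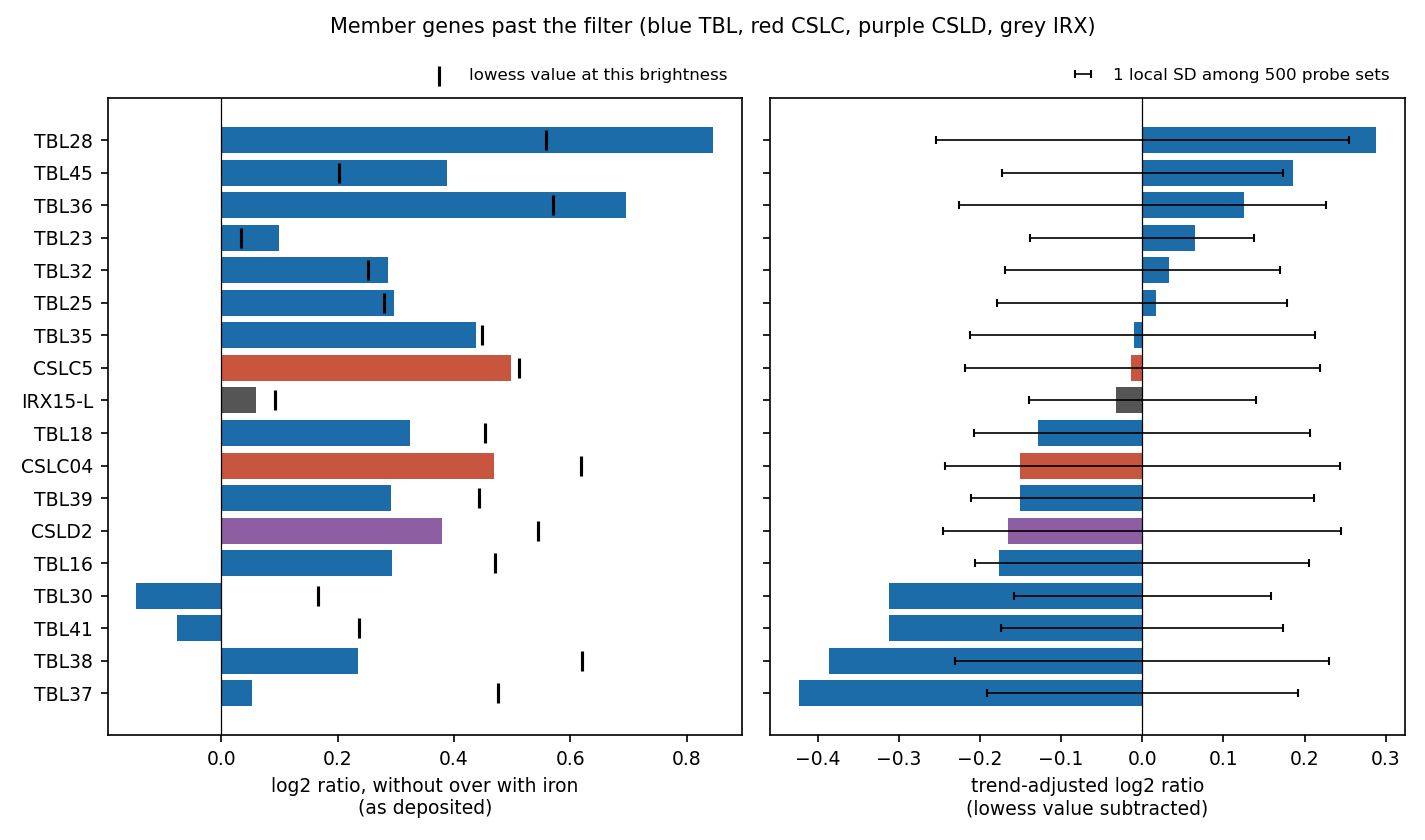
Log2 ratio (without iron over with iron) of the 18 members past the filter as deposited (left, with the lowess value at each gene's brightness as a tick) and trend-adjusted (right, with 1 local SD among 500 probe sets around 0). On the left 16 of 18 bars are above 0, on the right 6 are.

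Of the 18 members past the filter, 16 had a higher deposited value without iron, or 88.9%, beside 91.8% of all past it. Their median log2 ratio was 0.30, beside 0.38 for all. After trend adjustment 12 of the 18 were below the trend and 6 above, with a median of -0.08, beside 48.6% below and a median of 0.01 for all past the filter. The 3 other scalings gave a median between -0.09 and -0.07. Under all 4 scalings that remove the common shift or trend, TBL28, TBL36 and TBL45 were above 0, and 9 members (TBL16, TBL18, TBL30, TBL37, TBL38, TBL39, TBL41, CSLD2 and IRX15-L) were below 0. These are 16.7% and 50% of the 18, and among all past the filter 35.6% were above 0 and 35.5% below 0 under all 4. The sign of the remaining 6 depended on the scaling. All 4 scalings start from the same 2 arrays, so their agreement is not independent support. The median one leaves the trend with brightness in place, and the other 3 remove it. CSLC04 was among the 6, with -0.15, -0.15 and -0.22 under those 3 and 0.08 under the median one. IRX15-L was among the 9, at only -0.03 after trend adjustment (local SD 0.14).

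The authors' deposited table lists q below 0.05 for 4 of the 18 members past the filter, TBL28, CSLC5, TBL18 and TBL36, all higher without iron. This is 22.2%, where 45.1% of all past the filter had such a q and 44.1% had it with a higher value. Both members with a 1.5-fold higher value were among the 4, and 22.5% of all past the filter met both conditions. Below the filter 7 of 15 members (CSLA01, GAUT15, TBL15, TBL19, TBL20, TBL42 and TBL43) were listed with q below 0.05 in the authors' deposited table, all lower without iron. Of all below the filter 77.5% had such a q and 77.0% had it with a lower value. The lowest q of any member there belonged to CSLA01, 0.000196 in the authors' deposited table, and CSLA01 lay 0.02 from the trend. GAUT15, TBL15, TBL20 and TBL43 also lay within 1 local SD of it. TBL19 and TBL42, with q of 0.00602 and 0.0109 in the authors' deposited table, did not. Their trend-adjusted log2 ratios were -0.28 and -0.20 (local SD 0.11 for each).

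**Figure D4:**
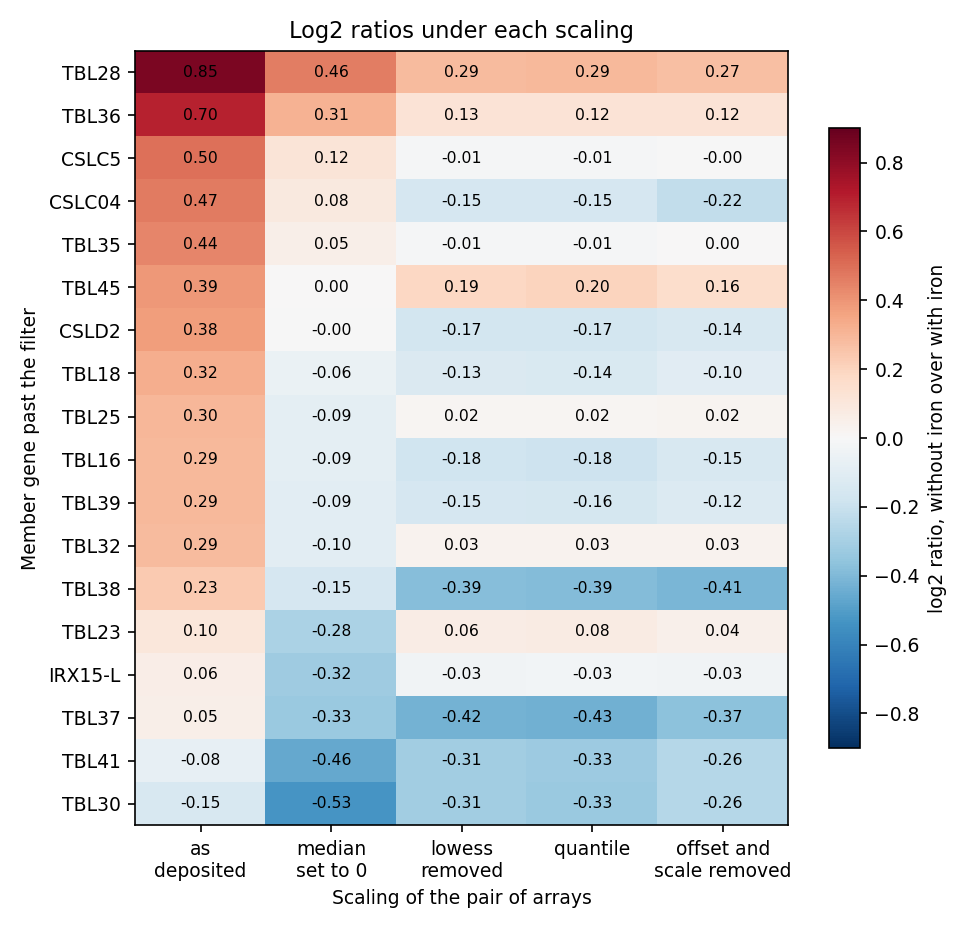
Log2 ratio (without iron over with iron) of each member past the filter, written in the cells, as deposited and under 4 scalings of the pair of arrays. TBL28 is positive in all columns (0.85 to 0.27), and TBL38 is positive as deposited (0.23) and negative in the other 4 columns.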

How the data were processed

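Per the labels' protocols, sorted-cell RNA was amplified in successive rounds, labelled with biotin and read on a 1-colour Affymetrix array. Such amplification favours 3' ends and can widen differences between arrays. The deposited intensity values (1 column per condition) are on a linear scale. Their background correction, summarisation and scaling were not given in the sources used here. For each probe set the authors also supplied a q-value in a deposited table. The test and arrays behind it were not given in the sources used here, and it is quoted as theirs.

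Of 22801 probe sets, 55 controls were left out. The platform's gene table, which can be dated, named 1 gene for 13513 plant probe sets, several for 503 and none for 8730. All 33 members were found by gene ID in the reference gene table (assembly TAIR10.1). Differences are log2 without a pseudocount, and the lowess fraction was 0.2 (statsmodels 0.14.6, Python 3.11.15). Members past the filter could all be named, and of those below it each family's highest and lowest trend-adjusted log2 ratio, with the rest given for completeness. The members and lists were chosen with earlier results of these data known. With 1 array per condition no p-value was computed, and the number of arrays limits the precision. The procedure was tested on simulated data. The planted differences were larger than any trend-adjusted ratio of a member, and the noise was below the local SD. That test therefore does not show how well differences of the size reported here are recovered. Alternatives were other filters, scalings, pseudocounts (0.5 and 1), lowess fractions (0.1 and 0.4), fold limits (a log2 limit of 0.32, and 2-fold) and a q limit of 0.01.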

Additional observations from a re-analysis of the deposited data

How the results depend on the processing

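No paired analysis was possible because each condition has 1 array, so no replicate could be left out either. The median log2 ratio of the members past the filter, 0.30 as deposited, was -0.0821 after quantile normalization, -0.0881 once the median difference was set to 0 and -0.0673 once a fitted offset and scale factor were removed. The count of members at least 1.5-fold higher, 2 as deposited, was 0 under each of these 3 scalings, 1 with a pseudocount of 1, 8 at a lower limit (log2 0.32, reached by 58.1% of all past the filter) and 0 at 2-fold. When the authors' deposited table also had to list q below 0.05, the count of 2 was 0 under the same 3 scalings, 1 with a pseudocount of 1, 4 at the lower limit (41.1% of all past the filter), 0 at 2-fold and 1 with q under 0.01. After trend adjustment, 2 members (TBL37 and TBL38) were lower by at least the lower limit (7.20% of all past the filter) and 0 were 1.5-fold lower. With no filter the median log2 ratio was 0.0466 over all 33 members. The trend-adjusted median, -0.08, was -0.0326 with no filter, -0.150 with the filter at the 75th percentile, and -0.128 both without the probe set ending in _s_at (TBL32) and with the filter on the higher value. It stayed below 0 under every alternative run. None of the scalings and pseudocounts run turned the sign of TBL28 or TBL36.

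With 1 array per condition, the spread between samples of a group is unknown. The 15 members below the filter read between 0.458 and 0.804 without iron and between 0.599 and 0.918 with iron, and their brightness lay between percentiles 7.76 and 49.8 of all plant probe sets.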
